A study of Mus musculus with 6 samples.

Results

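The genes described here encode the proteasome, the protease complex that degrades ubiquitin-tagged proteins in the cytosol and nucleus. They were chosen by symbol, as every gene of the count table named Psma to Psmg with a number, leaving out the immunoproteasome genes Psmb8, Psmb9 and Psmb10. This gave 47 of 24498 genes, of which 45 passed the filter on low counts beside 13846 genes in all. The 47 comprise 14 subunits of the core particle, 17 subunits of the regulatory particle, 3 chaperones of the regulatory base, 5 activator genes, 1 inhibitor, 4 core assembly chaperones, 2 tissue-restricted core genes and Psmc3ip. Psmc3ip matches by its symbol but is a factor of meiotic recombination and no part of the proteasome, so it was counted apart.

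The core particle is a barrel of stacked rings. Its outer rings are built from Psma (alpha) subunits and gate the entry, and its inner rings are built from Psmb (beta) subunits, of which Psmb5, Psmb6 and Psmb7 carry the proteolytic sites. The regulatory particle caps the barrel. Its Psmc ATPases unfold the substrate, and some of its Psmd subunits bind or remove ubiquitin. Under interferon, Psmb8, Psmb9 and Psmb10 take the place of the catalytic subunits and the activator of Psme1 and Psme2 is induced. In secretory epithelia such as the prostate, the proteasome also degrades misfolded proteins that are returned from the endoplasmic reticulum.

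RNA was sequenced from marked prostate epithelial cells that were sorted from male mice of 2 lines. Nkx cells came from Nkx3.1-CreER(T2) mice crossed to an EYFP reporter, and Clu cells from Clu-CreER(T2) mice crossed to a tdTomato reporter. Mice of all groups were 8 weeks old when castrated or left intact, and tissue was taken 4 weeks later. The groups were Nkx intact, Nkx castrate and Clu intact, with 2 libraries each, and a castrated Clu group was not analysed here. Between Clu and Nkx groups the marked lineage, the mouse line and the reporter differ together and cannot be told apart. Both recombinases are inducible and mark the cells in which the driver gene was active at induction, together with their descendants, and the labels give no time of induction. Whether each library stands for another animal is not said in the labels. The spread behind the p-values is that between these libraries, and it may be technical.

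Libraries held 10220118 to 17412874 counts, and 1 count was worth 0.0561 to 0.0988 CPM, which are counts scaled to a common library size with TMM factors. The 6 luminal markers summed to between 3747 and 6776 CPM and the 4 basal markers to between 1404 and 2655 CPM, so RNA of both marker lists was present in each library. A sum does not show how much each marker gave. Nkx castrate 1 stood apart. The sum of its 8 markers of fibroblasts and smooth muscle was 1902 CPM, against 484 to 735 CPM in the other 5 libraries, that of its 7 leukocyte markers was 371 CPM against 32.2 to 164 CPM, and 18516 genes had a count there against 15045 to 15778. RNA of 5 endothelial markers came to 42.9 and 27 CPM for Nkx intact, 308 and 40.9 CPM for Nkx castrate, and 770 and 317 CPM for Clu intact. Seminal vesicle RNA, from 3 markers, came to 75.9 and 132 CPM for Nkx intact and to at most 3.88 CPM in the other libraries, and the 3 urothelial markers to 109 and 134.5 CPM in Nkx intact against 226 to 353 CPM in the others. The 3 neuroendocrine markers summed to at most 7.9 CPM. Each of these markers had a count in at least 1 library. In bulk RNA, fewer cells of a type and less RNA per cell cannot be told apart.

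The promoters of 6 proteasome genes, picked after their values were seen, show how the motifs fall in genes of different roles. Psmb5 and Psmb6 are catalytic core subunits, Psmc1 and Psmd12 are regulatory subunits with an ETS site, and Psme1 and Psme2 are the activator genes that passed the test. Each sequence is the 250 bases upstream of the RefSeq gene start on build GRCm38.p6, written from 5′ to 3′ on the gene's own strand. Capitals mark matches, on either strand, to the core of the antioxidant response element, through which the transcription factors Nfe2l1 and Nfe2l2 are known to drive proteasome genes (TGACNNNGC), to the CCAAT box and to the ETS site (CCGGAAGT). Psmb5 lies on the minus strand at chr14:54617996-54618245, and Psmb6 on the plus strand at chr11:70525107-70525356. Psmc1 lies on the plus strand at chr12:100109952-100110201, and Psmd12 on the plus strand at chr11:107479278-107479527. Psme1 lies on the plus strand at chr14:55578244-55578493, and Psme2 on the minus strand at chr14:55591102-55591351.
Psmb5: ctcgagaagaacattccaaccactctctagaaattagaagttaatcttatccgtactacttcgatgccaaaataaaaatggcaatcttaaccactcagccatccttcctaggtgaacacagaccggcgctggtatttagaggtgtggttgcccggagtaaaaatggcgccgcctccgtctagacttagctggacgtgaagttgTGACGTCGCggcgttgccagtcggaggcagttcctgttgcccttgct
Psmb6: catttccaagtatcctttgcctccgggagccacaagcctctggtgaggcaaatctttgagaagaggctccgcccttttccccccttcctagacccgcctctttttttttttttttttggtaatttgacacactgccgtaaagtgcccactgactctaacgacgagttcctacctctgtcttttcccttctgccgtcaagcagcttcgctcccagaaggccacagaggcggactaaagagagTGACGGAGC
Psmc1: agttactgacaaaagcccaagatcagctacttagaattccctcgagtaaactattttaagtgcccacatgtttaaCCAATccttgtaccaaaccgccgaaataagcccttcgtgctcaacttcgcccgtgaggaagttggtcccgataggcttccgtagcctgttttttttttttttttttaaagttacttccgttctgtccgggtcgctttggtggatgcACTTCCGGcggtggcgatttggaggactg
Psmd12: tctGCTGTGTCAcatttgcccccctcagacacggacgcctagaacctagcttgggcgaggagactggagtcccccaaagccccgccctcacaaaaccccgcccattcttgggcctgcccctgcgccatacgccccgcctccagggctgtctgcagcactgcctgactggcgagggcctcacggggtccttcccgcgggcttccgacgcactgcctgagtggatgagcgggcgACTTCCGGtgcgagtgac
Psme1: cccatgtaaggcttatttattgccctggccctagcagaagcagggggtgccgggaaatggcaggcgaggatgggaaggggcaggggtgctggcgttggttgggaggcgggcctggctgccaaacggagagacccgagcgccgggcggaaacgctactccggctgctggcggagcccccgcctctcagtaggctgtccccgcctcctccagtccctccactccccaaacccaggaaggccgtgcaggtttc
Psme2: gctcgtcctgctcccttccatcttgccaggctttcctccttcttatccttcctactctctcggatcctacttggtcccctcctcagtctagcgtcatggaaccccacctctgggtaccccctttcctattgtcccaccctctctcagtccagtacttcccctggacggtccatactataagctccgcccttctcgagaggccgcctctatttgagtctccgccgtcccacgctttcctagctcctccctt

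In Psmb5 and Psmb6 the capitals are the antioxidant core, which starts 47 and 9 bases before the gene start. In Psmc1 they are a CCAAT box and, 29 bases before the start, an ETS site. In Psmd12 they are an antioxidant core 247 bases and an ETS site 18 bases before the start. The windows of Psme1 and of Psme2 (the first of 2 listed for it) held no match to these letters. Of 42 promoters listed for 39 members, 5 (11.9%) held the antioxidant core, against 10.2% of 32851 promoters of all genes. The CCAAT box was in 50% of the 12 core promoters and 26.7% of the 15 regulatory promoters, against 33.8% of all. The ETS site was in 5 of 15 regulatory promoters (33.3%, in Psmc1, Psmc2, Psmd6 and Psmd12) and in 0 of 12 core promoters, against 2.88% of all. The interferon-stimulated response element and the gamma-activated site TTCNNNGAA, both searched after the values were seen, were in 7.14% and 2.38% of the members' promoters, none of them of Psme1 or Psme2, against 2.98% and 7.02% of all. The letters of the motifs do not overlap each other in the printed sequences, and a match is a description of the sequence only.

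The subunits of both particles were expressed in every library and lay close together between groups. The 14 core subunits summed to 821 and 831 CPM in the Nkx intact libraries, 626 and 780 CPM in the castrate libraries, and 778 and 948 CPM in the Clu libraries. The 17 regulatory subunits summed to 1530 and 1574 CPM, 1245 and 1518 CPM, and 1503 and 1678 CPM in the same order. For both particles Nkx castrate 1 was the lowest and Clu intact 2 the highest library. Both Nkx castrate libraries lay below both Nkx intact libraries, while the Clu intact libraries lay on either side of them. The ratio of regulatory to core CPM stayed between 1.77 and 1.99 over the 6 libraries.

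**Figure D1:**
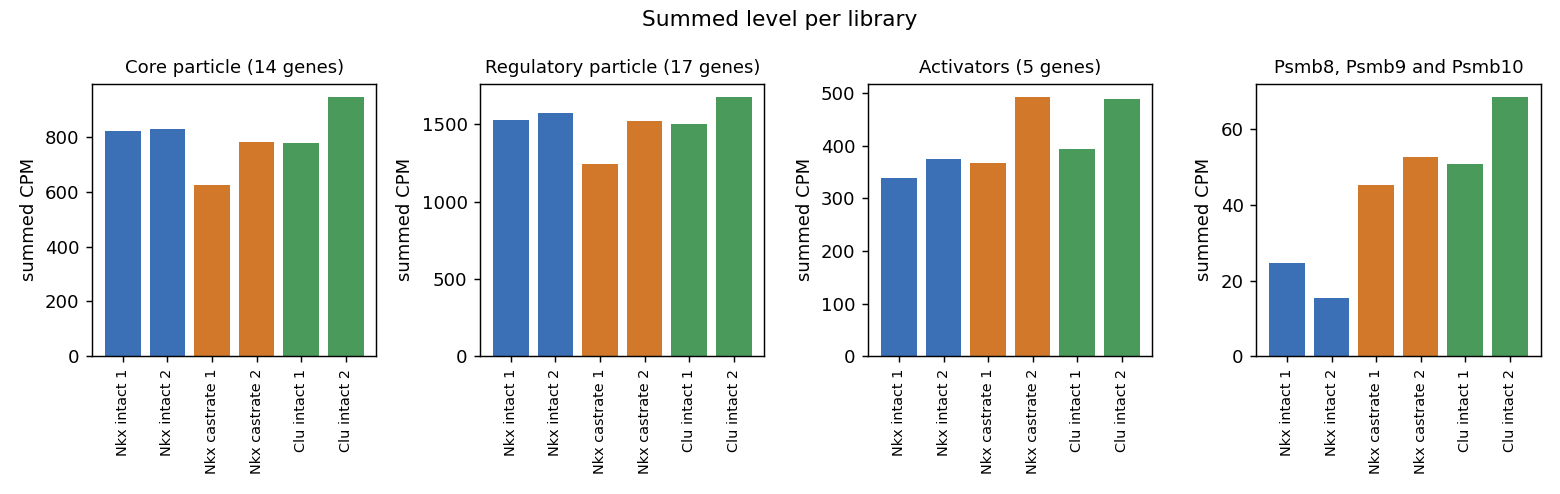
Bars give the summed CPM of each library (y axis, from 0) for the 14 core subunits, the 17 regulatory subunits, the 5 activator genes and the 3 immunoproteasome genes, coloured by group. The core sums lie between 626 and 948 CPM, and the immunoproteasome sums are 15.3 to 24.7 CPM in Nkx intact and 45.2 to 68.6 CPM in the other 4 libraries.

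Levels differed more between subunits than between groups. Per kb of exon, core alpha subunits averaged from 13.1 CPM per kb (Psma1) to 41.1 CPM per kb (Psma6) over the 6 libraries, a range of 3.13-fold, and core beta subunits from 10.4 CPM per kb (Psmb7) to 43.3 CPM per kb (Psmb4), a range of 4.17-fold. The ATPases ran from 13.6 CPM per kb for Psmc2 to 54.3 CPM per kb for Psmc3, the highest of the 31 subunits on this scale. The non-ATPases ran from 10.5 CPM per kb for Psmd14, the deubiquitinase of the lid, to 50.5 CPM per kb for Psmd4, a ubiquitin receptor. These lengths come from gene models of another build than the authors' counts. With the longest transcript as the length, the range of the core beta subunits became 6.32-fold, with Psmb6 the highest of them and of the 31 subunits. The lowest and highest alpha subunits were then Psma2 and Psma4, and the highest non-ATPase was Psmd8. Psmb7, Psmc2 and Psmd14 stayed the lowest of their lists, and Psmc3 stayed the highest ATPase.

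**Figure D2:**
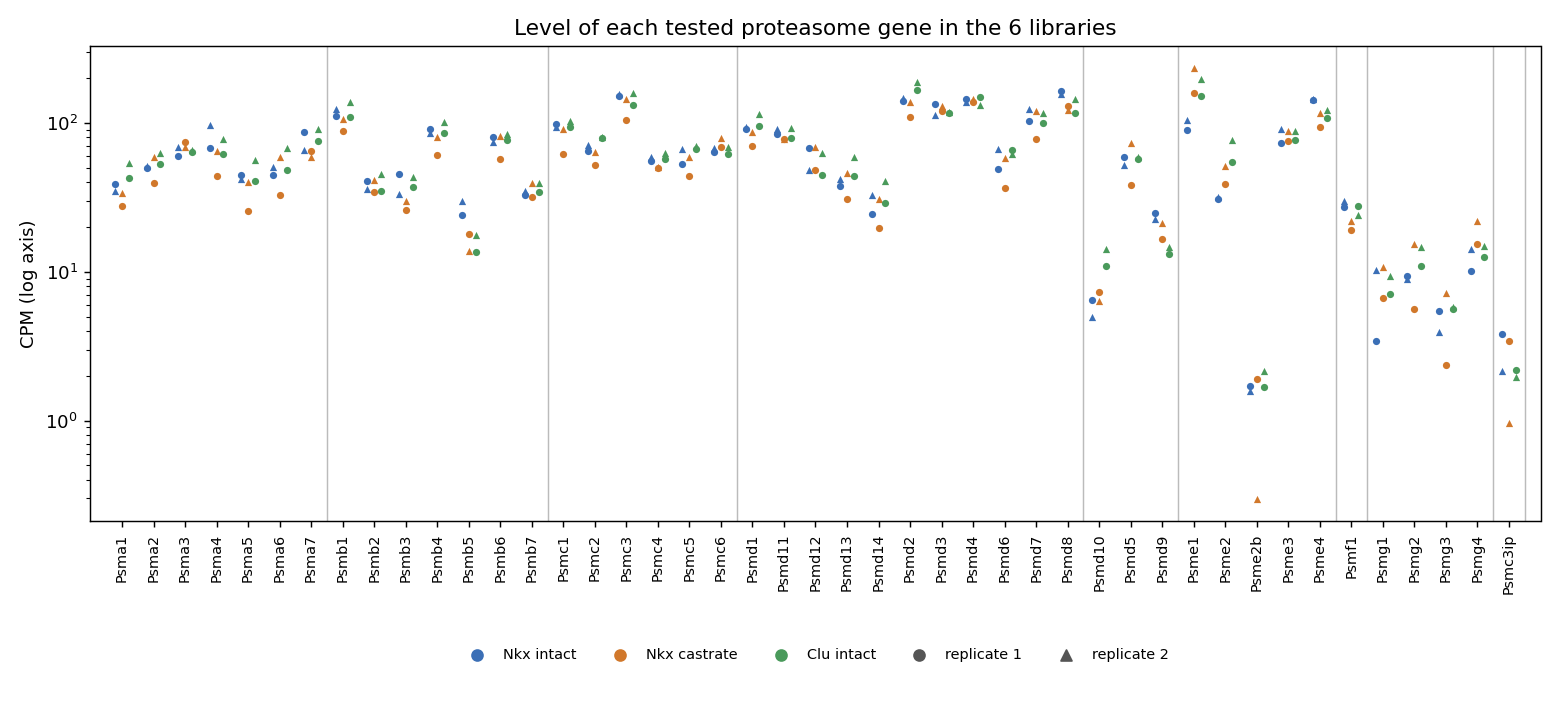
Each point is the CPM (log axis, not per length) of a tested gene in 1 library, with circles for replicate 1, triangles for replicate 2 and colour for the group; grey lines part the alpha, beta, ATPase, non-ATPase, base chaperone, activator, inhibitor and assembly chaperone genes and Psmc3ip. Psme1 and Psme2 have both Nkx intact libraries below the other 4, and Psmb5 has them above the other 4.

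No core or regulatory subunit passed the test after castration, and most stood somewhat lower. In Nkx castrate against Nkx intact, the quasi-likelihood test of edgeR, adjusted by Benjamini-Hochberg, called 0 of 14 core and 0 of 17 regulatory subunits at an adjusted p under 0.05, with 1 at an unadjusted p under 0.05, and DESeq2 and limma-voom also called 0. Among all tested genes 8.61% were called and 23.6% had an unadjusted p under 0.05. The median log2 fold change was -0.27 for the core and -0.18 for the regulatory particle, against 0.05 for all tested genes, and 26 of the 31 subunits had a value below 0. The median was -0.27 for the alpha and for the beta subunits, -0.23 for the ATPases and -0.18 for the non-ATPases. The lowest was Psmb5 at -0.77 and the highest Psmc6, an ATPase, at 0.16. For 10 of 14 core and 17 of 17 regulatory subunits the 95% interval, taken for each gene alone, lay inside a 2-fold change in either direction. The libraries of the groups did not overlap in 18 subunits, 16 lower in Nkx castrate (24.6% of all tested genes were lower in this way) and 2 higher (25.4% of all).

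The castrate libraries differed in how low they stood. Nkx castrate 1 was the lowest of the 6 libraries for 23 of 31 subunits, and Nkx castrate 2 exceeded it in 27 of 31, by a median log2 difference of 0.31. Clu intact 2 likewise exceeded Clu intact 1 in 29 of 31, by a median of 0.24, and Nkx intact 2 exceeded Nkx intact 1 in 19 of 31, by a median of 0.07. Without Nkx castrate 1 the median log2 fold change was -0.12 for the core and -0.03 for the regulatory particle. Without Nkx castrate 2 it was -0.44 and -0.39. Nkx castrate 1 is also the library with the highest sums of leukocyte markers and of fibroblast and smooth muscle markers. Of the latter 8, Acta2 and Myh11 were called higher after castration by edgeR, while 4 had log2 fold changes below 0, with Col3a1 lowest at -1.60. The part of leukocyte, fibroblast and smooth muscle RNA in the lower subunit levels was not tested.

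None of the catalytic subunits was called with all 6 libraries in the fit. Psmb5, the chymotrypsin-like site, stood at 24 and 30.1 CPM in the Nkx intact libraries, 18 and 13.8 CPM in the castrate libraries, and 13.5 and 17.8 CPM in the Clu libraries. Both Nkx intact libraries were above the other 4. Its log2 fold change was -0.77 (SE 0.29) in Nkx castrate and -0.79 (SE 0.29) in Clu intact, each against Nkx intact, and neither was called (edgeR quasi-likelihood, Benjamini-Hochberg adjusted p = 0.161 and 0.134). Both comparisons share the Nkx intact libraries. When only the Clu intact and Nkx intact libraries entered the fit, Psmb5 was called lower in Clu intact. That fit also called more of all tested genes than the 11.3% called with all 6 libraries, as given in the last section.

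Psmb6, the caspase-like site, stood at 80.7 and 75.2 CPM in the Nkx intact libraries, 57.8 and 82 CPM in the castrate libraries, and 76.9 and 84.5 CPM in the Clu libraries, so the libraries of all groups overlapped. Psmb7, the trypsin-like site, stood at 32.8 and 34.9 CPM, 32 and 39.3 CPM, and 34.6 and 39.5 CPM in the same order. The log2 fold changes of Psmb6 and Psmb7 over the 3 comparisons lay between -0.16 and 0.21, with SEs of 0.21 to 0.22.

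Psmd4 and Psmd14, which bind and remove ubiquitin, had no call in any comparison. Psmd4, the ubiquitin receptor, stood at 146 and 139 CPM in the Nkx intact libraries, 139 and 145 CPM in the castrate libraries, and 150 and 132 CPM in the Clu libraries. Its largest log2 fold change in size over the 3 comparisons was -0.01 (SE 0.16). Psmd14 stood at 24.5 and 33.1 CPM, 19.8 and 31 CPM, and 29.2 and 40.9 CPM, with overlap between all groups and a log2 fold change of -0.18 (SE 0.31) after castration.

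**Figure D3:**
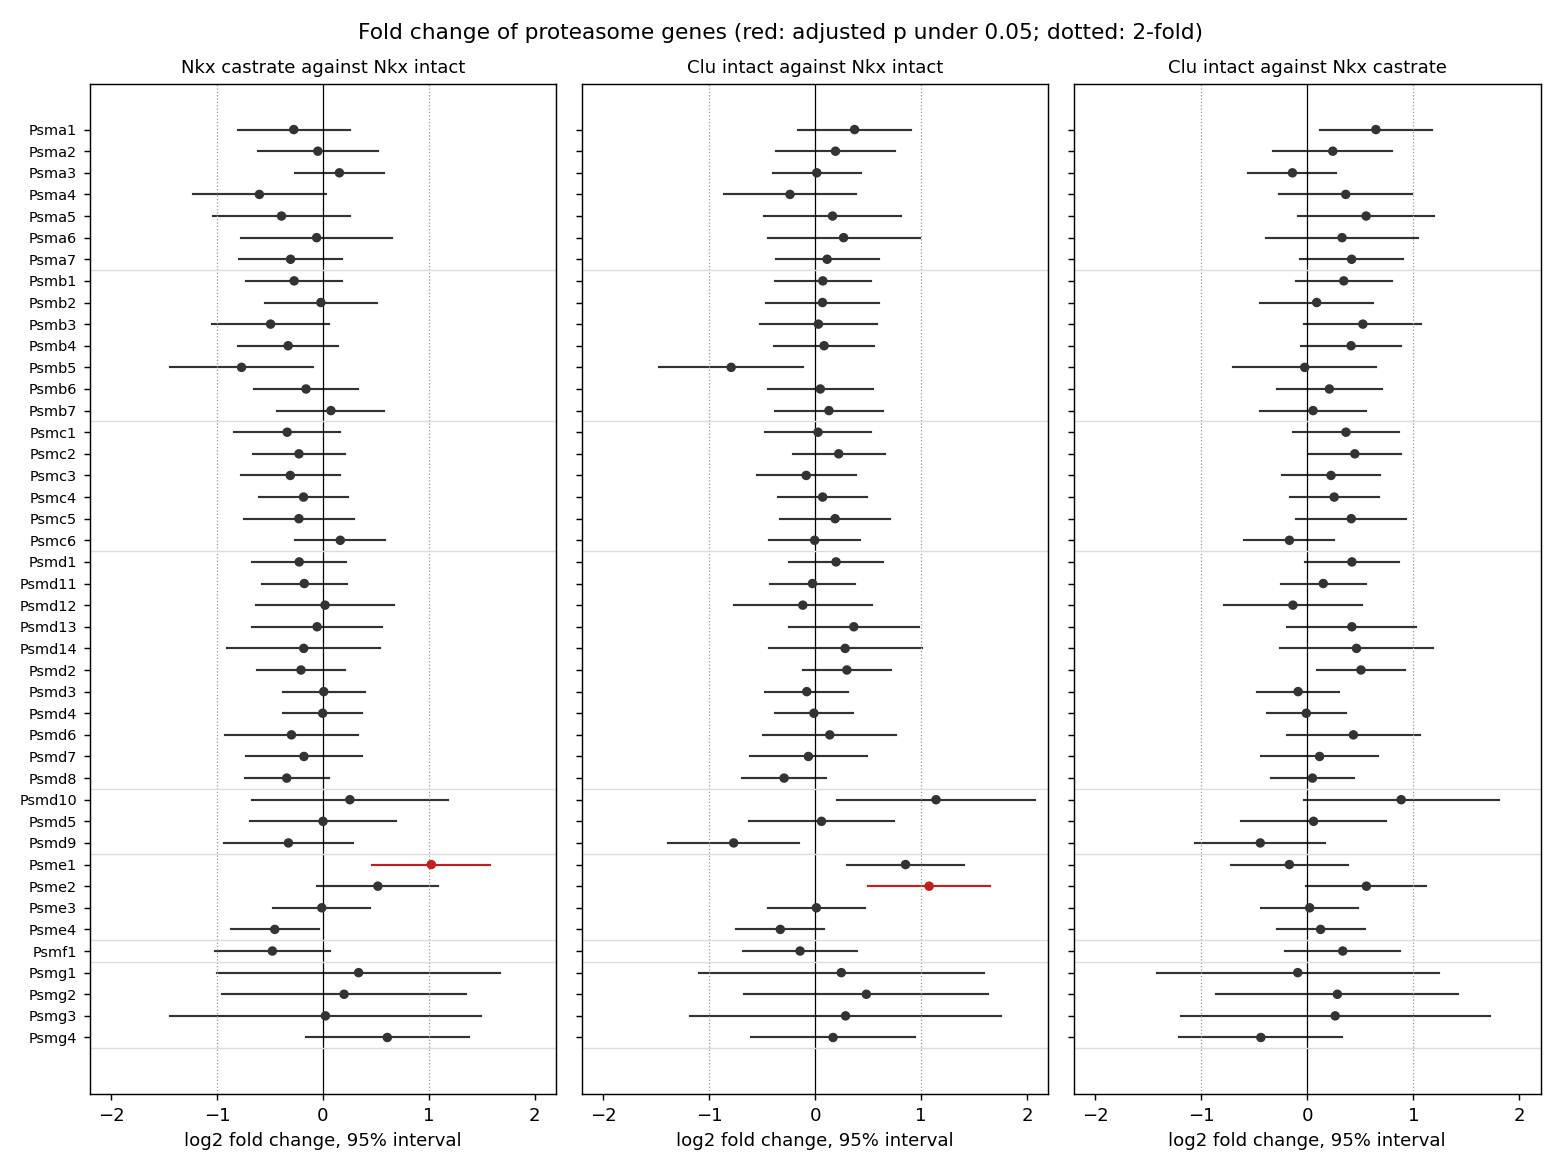
Points are log2 fold changes with 95% intervals (x axis) for the tested genes (y axis) in the 3 comparisons; red marks an adjusted p under 0.05, dotted lines a 2-fold change, and the low-count genes Psme2b and Psmc3ip are not drawn. Psme1 after castration and Psme2 in Clu intact against Nkx intact are red, at 1.02 and 1.08.

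No core or regulatory subunit passed the test between Clu intact and Nkx intact cells, and their medians lay near 0. In edgeR's quasi-likelihood test, 0 of 31 subunits were called, 1 had an unadjusted p under 0.05, and DESeq2 and limma-voom called 0. Among all tested genes 11.3% were called and 26.2% had an unadjusted p under 0.05. The median log2 fold change was 0.08 for the core and 0.03 for the regulatory particle, against -0.01 for all tested genes. The 95% intervals of 13 of 14 core and 16 of 17 regulatory subunits lay inside a 2-fold change. The exceptions were Psmb5, at its lower end, and Psmd14, whose interval reached a log2 value of 1.004. The libraries of the groups did not overlap for 8 subunits, 6 of them higher in Clu intact (31.9% of all tested genes) and 2 lower (31.3% of all). Psma1, an alpha subunit, had the highest value, at 0.37 (SE 0.23).

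In Clu intact against Nkx castrate, most subunits leaned towards Clu intact without a call. edgeR's quasi-likelihood test called 0 of 31 subunits and 0 of the 45 tested members, and DESeq2 and limma-voom called 0 as well, while 3 subunits had an unadjusted p under 0.05. Among all tested genes 16.9% were called, 8.82% higher and 8.1% lower, and 32.5% had an unadjusted p under 0.05. The median log2 fold change was 0.34 for the core and 0.25 for the regulatory particle, against 0.00 for all tested genes. Psma1 (0.65, SE 0.23) and Psmd2, a scaffold of the regulatory base (0.51, SE 0.18), had the highest values in their particles, with adjusted p = 0.0924 and 0.0947 (edgeR quasi-likelihood, Benjamini-Hochberg). Psma1 stood at 27.7 and 33.9 CPM in the castrate libraries and at 42.4 and 53.9 CPM in the Clu libraries. Psmd2 stood at 111 and 139 CPM in the castrate libraries and at 166 and 189 CPM in the Clu libraries. The groups' libraries did not overlap in either gene, as in 14 subunits that were higher in Clu intact (31.5% of all tested genes were higher in this way) and 2 that were lower (30% of all).

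This comparison moved with single libraries of both groups. Without Nkx castrate 2, Nkx castrate 1 stood alone and was assumed to vary like the other groups. The median log2 fold change was then 0.48 for the regulatory particle. Without Nkx castrate 1 it was 0.15 for the core and 0.14 for the regulatory particle. Without Clu intact 1 it was 0.54 and 0.37, and without Clu intact 2 it was 0.17 and 0.22. With library totals in place of the TMM factors, Psmd2 was called.

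**Figure D4:**
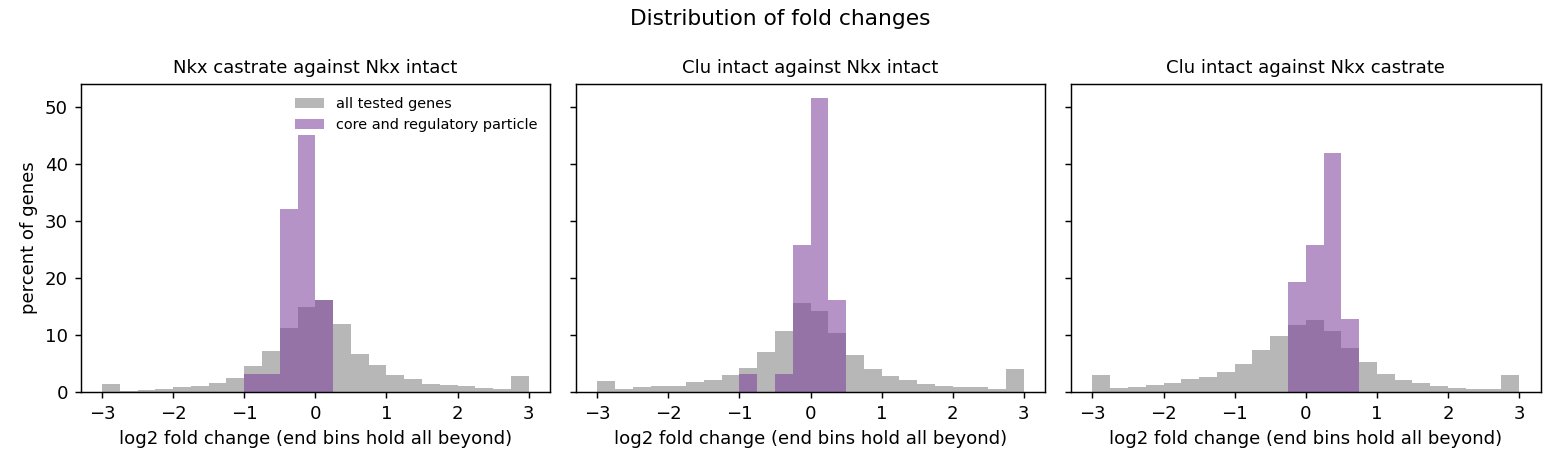
Bars give the percent of genes (y axis) in bins of log2 fold change (x axis) for all tested genes and for the 31 core and regulatory subunits. The subunits lie within a 2-fold change in each comparison, as do 77.7%, 73.2% and 70.7% of all tested genes from left to right.

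The spread of fold changes over the 31 subunits was narrow. Its SD was 0.21 in Nkx castrate against Nkx intact, 0.22 in Clu intact against Nkx intact and 0.23 in Clu intact against Nkx castrate, beside 1.31, 1.49 and 1.45 over all tested genes. The subunits had a median of 68.6 CPM and all tested genes of 21.1 CPM, and the part of this difference in level in the narrower spread was not tested.

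Psme1 and Psme2 encode the alternating subunits of the interferon-inducible activator ring, and they were the only members called. Psme1 rose after castration, from 89.8 and 104 CPM to 158 and 236 CPM, and it stood at 152 and 199 CPM in the Clu libraries. Both Nkx intact libraries were below the other 4. The log2 fold change in Nkx castrate against Nkx intact was 1.02 (SE 0.24), an adjusted p of 0.0402 (edgeR quasi-likelihood, Benjamini-Hochberg), beside 4.02% of all tested genes called higher and 4.59% called lower. For Clu intact against Nkx intact it was 0.85 (SE 0.24) with an adjusted p of 0.0613 by the same test, which was not called.

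Psme2 was higher in Clu intact, where the libraries held 55 and 77.2 CPM, above the 31.1 and 31.6 CPM of Nkx intact, with 38.7 and 51.2 CPM after castration. The groups stood in order without overlap. The log2 fold change in Clu intact against Nkx intact was 1.08 (SE 0.25), an adjusted p of 0.0308 (edgeR quasi-likelihood, Benjamini-Hochberg), beside 6.29% of all tested genes called higher and 5% called lower. In Nkx castrate against Nkx intact it was 0.52 (SE 0.25) with an adjusted p of 0.255 by the same test. Psme2 reads can be shared with the near-identical copy Psme2b, which held between 4 and 34 counts per library, and exons of Psme1 overlap Emc9 on the opposite strand, so both counts carry that uncertainty.

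Both calls depended on which libraries entered the fit, as did the number of calls over all tested genes, given in the last section. The call of Psme1 after castration was lost without either library of Nkx intact, without either of Clu intact, and with only the Nkx libraries in the fit, where adjusted p reached 0.261 (edgeR quasi-likelihood, Benjamini-Hochberg), and its log2 fold change ranged from 0.70 without Nkx castrate 2 to 1.28 without Nkx castrate 1. The call of Psme2 in Clu intact was lost without any of the 4 libraries compared, with adjusted p of up to 0.266 by the same test and log2 fold changes from 0.83 to 1.31. Leukocytes and endothelial cells also express these genes. Psme1 was higher in Nkx castrate 2 than in Nkx castrate 1, where leukocyte markers summed to 85.5 and 371 CPM and endothelial markers to 40.9 and 308 CPM. In Clu intact, where Psme2 was highest, leukocyte markers summed to 32.2 and 34.8 CPM, below the 150 and 164 CPM of Nkx intact, while endothelial markers were higher, at 770 and 317 CPM. Urothelial markers summed to 268 and 353 CPM after castration and to 226 and 230 CPM in the Clu libraries, above the 109 and 134.5 CPM of Nkx intact. Of these, edgeR called Upk3a higher after castration, and Upk1b and Upk2 higher in Clu intact, each against Nkx intact. The part of leukocyte, endothelial and urothelial RNA in the calls of Psme1 and Psme2 was not tested.

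The other activators and the inhibitor had no call. Psme3, the nuclear activator, stood at 73.1 and 91.8 CPM in the Nkx intact libraries, 75.4 and 88.4 CPM in the castrate libraries, and 77.4 and 89 CPM in the Clu libraries. Psme4, a large activator known from sperm development and DNA repair, stood at 143 and 146 CPM in the Nkx intact libraries, 93.9 and 117 CPM in the castrate libraries, and 108 and 122 CPM in the Clu libraries. Its log2 fold change after castration was -0.45 (SE 0.18) and was not called (edgeR quasi-likelihood, Benjamini-Hochberg adjusted p = 0.177). The inhibitor gene Psmf1 stood at 27.2 and 29.9 CPM in the Nkx intact libraries and at 19 and 22 CPM in the castrate libraries, a log2 fold change of -0.48 (SE 0.23) that was not called either.

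Chaperones of assembly had no call. The 4 core assembly chaperones Psmg1 to Psmg4 ranged from 2.36 to 21.9 CPM over the libraries, and edgeR, DESeq2 and limma-voom called none of them in any comparison. Among the chaperones of the regulatory base, Psmd10, which encodes the oncoprotein gankyrin, stood at 6.5 and 4.94 CPM in the Nkx intact libraries, 7.3 and 6.36 CPM in the castrate libraries, and 11 and 14.3 CPM in the Clu libraries. Psmd9 stood at 24.9 and 22.5 CPM, 16.7 and 21.1 CPM, and 13.2 and 14.6 CPM in the same order. The log2 fold changes in Clu intact against Nkx intact were 1.14 (SE 0.40) for Psmd10 and -0.77 (SE 0.27) for Psmd9, with adjusted p = 0.119 and 0.114 (edgeR quasi-likelihood, Benjamini-Hochberg). Clu intact lay apart from both Nkx groups in both genes, in opposite directions, and neither gene was called with all libraries in the fit. In the GRCm38 gene models, exons of Psmd9 overlap a gene on the opposite strand, as do those of Psma4, Psma5, Psmb7, Psmc3, Psmd1, Psmd3, Psmd13, Psmb8 and Psmb9, and the counting is not stated to use strand, so these counts carry that uncertainty.

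The tissue-restricted core genes were near absent. Psma8, the alpha subunit of the testis, held 2 counts, all in Nkx castrate 1, and Psmb11, the beta subunit of the thymus, held 4 counts in Nkx intact 1 and 1 count in Nkx castrate 2. Neither entered the test. Psmc3ip held between 13 and 61 counts per library and was not called in any comparison. Rows of the table that carry proteasome pseudogene names numbered 5, with at most 4 counts over all libraries.

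The immunoproteasome genes, which the choice of members left out, stood higher outside Nkx intact. Psmb9 held 2.68 and 1.78 CPM in the Nkx intact libraries. It rose to 7.75 and 9.76 CPM after castration (log2 fold change 1.97, SE 0.44). In Clu intact Psmb9 was higher as well, at 12.3 and 14.1 CPM (2.56, SE 0.44), and so was Psmb10 (1.30, SE 0.31). For these, adjusted p was 0.0329, 0.0106 and 0.0334 (edgeR quasi-likelihood, Benjamini-Hochberg). Psmb8 stood at 12.1 and 6.03 CPM, 21.8 and 26 CPM, and 19.5 and 30.2 CPM, without a call. Per kb of exon, Psmb8 made up 11.8% and 5.05% of the sum of Psmb8 and Psmb5 in the Nkx intact libraries, 24.4% and 33.5% after castration, and 27.7% and 31.1% in the Clu libraries. With the longest transcript as length these shares became 19.1% and 8.62%, 36.4% and 47.1%, and 40.5% and 44.5%. Psmb9 made up 1.67% and 1.2%, 6.42% and 5.74%, and 7.58% and 7.87% of its sum with Psmb6 in the same order, by exon length, and 0.786% to 5.3% by the longest transcript. Psmb10 made up 37.8% and 30.2%, 49.4% and 46.2%, and 52.3% and 55.2% of its sum with Psmb7 by exon length. In each pair and by either length, both Nkx intact libraries had the lowest shares. The calls of Psmb9 and Psmb10 were each lost without any Nkx intact or Clu intact library, where adjusted p reached 0.272, and limma-voom called neither Psmb9 after castration nor Psmb10. DESeq2 called Psmb8 higher as well in both comparisons with Nkx intact. The sum of the urothelial markers was also higher outside Nkx intact. After castration edgeR called only Upk3a higher, while Upk2 and Upk1b had log2 fold changes of 1.28 and 0.19 without a call. In Clu intact against Nkx intact edgeR called Upk1b and Upk2 higher, while Upk3a was at -0.69. Upk2 thus had a log2 fold change above 0 in both comparisons. Endothelial markers were higher in Nkx castrate 1 (308 CPM) and in Clu intact (770 and 317 CPM) than in Nkx intact (42.9 and 27 CPM), and edgeR called 4 of 5 higher in Clu intact against Nkx intact. The part of urothelial and endothelial RNA in these values was not tested.

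**Figure D5:**
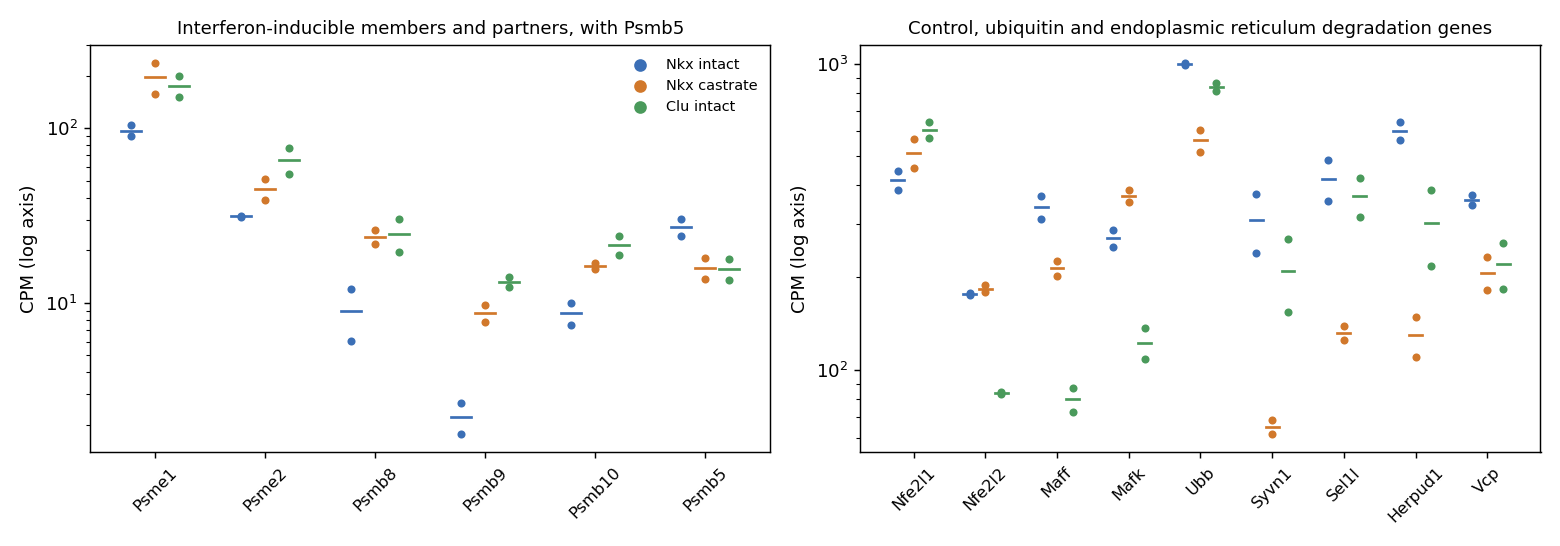
Points are CPM (log axis) in each library and short lines the group means. Nkx intact is lowest for Psme1, Psme2 and the 3 immunoproteasome genes and highest for Psmb5 (left), and the genes of control, ubiquitin and endoplasmic reticulum degradation move by group in several patterns (right).

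Some genes that work beside the proteasome passed the test. Of the 5 measured subunits and assembly factors with other symbols, edgeR called none in either comparison with Nkx intact. An unadjusted p under 0.05 was found for 3 after castration and 1 in Clu intact, beside 23.6% and 26.2% of all tested genes. DESeq2 called 1 (Adrm1, higher) after castration, while limma-voom called 0 in both. In Clu intact against Nkx castrate, Adrm1, a ubiquitin receptor of the regulatory particle, was lower, at 71.8 and 93.5 CPM against 149 and 161 CPM (log2 fold change -0.91, SE 0.19). Of 11 receptors, shuttles and deubiquitinases, Zfand5, a factor that binds the proteasome, was lower in the same comparison (-0.84, SE 0.18), in which 8.1% of all tested genes were called lower, and edgeR called no other in any comparison. After castration 5 of these 11 had an unadjusted p under 0.05, as had 23.6% of all tested genes, and DESeq2 called 2, Zfand5 higher and Ubqln2 lower. Between the intact groups 0 of the 11 had such a p, beside 26.2% of all tested genes, with 0 calls by DESeq2 and limma-voom. The calls of Adrm1 and Zfand5, with adjusted p = 0.0152 and 0.0187 (edgeR quasi-likelihood, Benjamini-Hochberg), were lost without either Clu intact library, where adjusted p reached 0.222.

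Of 8 genes of transcriptional control, edgeR called none after castration, with 2 at an unadjusted p under 0.05, beside 23.6% of all tested genes. DESeq2 called 1 there (Maff, lower) and limma-voom 0. In edgeR 3 of the 8 were called lower in Clu intact than in Nkx intact, beside 5% of all tested genes. Nfe2l1, the main activator of proteasome genes when proteolysis is short, stood at 386 and 447 CPM in the Nkx intact libraries, 456 and 567 CPM in the castrate libraries, and 572 and 643 CPM in the Clu libraries, without a call by edgeR, while DESeq2 called it higher in Clu intact against Nkx intact. Nfe2l2, its relative in the oxidative stress response, was lower in Clu intact, at 83.2 and 84.6 CPM against 175 and 178 CPM in the Nkx intact libraries and 189 and 179 CPM after castration. Maff and Mafk, small partners of both factors, were lower in Clu intact than in Nkx intact by log2 fold changes of -2.09 (SE 0.19) and -1.13 (SE 0.19). For Nfe2l2, Maff and Mafk in that comparison, adjusted p was 0.00499, 0.000834 and 0.00836 (edgeR quasi-likelihood, Benjamini-Hochberg). Maff kept its call when any library was left out, while Nfe2l2 was no longer called without any Nkx intact or Clu intact library, where adjusted p reached 0.0721, nor Mafk without either Nkx intact library or Clu intact 2, with adjusted p of up to 0.108. Against Nkx castrate 4 of the 8 were lower in Clu intact, namely Nfe2l2, Maff, Mafk and Mafg, beside 8.1% of all tested genes. There Mafg (log2 fold change -1.22, SE 0.28) lost its call without Nkx intact 1, Nkx intact 2 or Clu intact 2 and with only the groups compared in the fit, with log2 fold changes from -1.63 to -0.86, and Nfe2l2 was not called without Clu intact 2. Leukocyte markers were also low in the Clu libraries, at 32.2 and 34.8 CPM against 150 and 164 CPM for Nkx intact. Of the basal markers, edgeR called Krt5, Krt14 and Trp63 lower there than in Nkx intact, while Krt15 was not called, at a log2 fold change of 0.14. The part of leukocyte and basal RNA in these values was not tested.

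Of the 5 ubiquitin and activating enzyme genes described here, Ubb, a polyubiquitin gene, fell after castration from 992 and 1003 CPM to 606 and 515 CPM, and it stood at 815 and 866 CPM in the Clu libraries. Its log2 fold change after castration was -0.83 (SE 0.17), with an adjusted p of 0.026 (edgeR quasi-likelihood, Benjamini-Hochberg). The call was lost without any Nkx intact or Clu intact library, where adjusted p reached 0.187. Ubiquitin genes share a coding unit, so reads can be shared among them.

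Of 12 genes that carry misfolded proteins from the endoplasmic reticulum to the proteasome, 5 fell after castration and none rose, beside 4.59% of all tested genes called lower, and 6 were higher in Clu intact than in Nkx castrate, beside 8.82% of all called higher. None was called between the intact groups by edgeR, with 3 at an unadjusted p under 0.05, beside 26.2% of all tested genes. DESeq2 called 3 there (Derl3, Herpud1 and Vcp, lower in Clu intact) and limma-voom 1 (Derl3). Derl3, a channel component, fell from 93 and 108 CPM to 9.26 and 4.14 CPM (log2 fold change -3.90, SE 0.40). Syvn1, a ubiquitin ligase of that membrane, fell from 241 and 374 CPM to 68.4 and 61.7 CPM (-2.24, SE 0.31), and its partner Sel1l fell from 354 and 485 CPM to 124.5 and 139 CPM (-1.67, SE 0.23). Adjusted p was 0.00195, 0.00597 and 0.00543 in this order (edgeR quasi-likelihood, Benjamini-Hochberg). Without Nkx intact 2 only Derl3 of the 5 stayed called, with adjusted p of 0.0639 for Syvn1 and 0.0686 for Sel1l. Seminal vesicle markers stood lower as well, at most at 0.112 CPM after castration against 75.9 and 132 CPM in the intact libraries, with Svs4 and Svs5 called lower by edgeR, and the part of that RNA in the lower values was not tested. Derl3 stayed called when any library was left out, with log2 fold changes from -4.60 to -3.45. Vcp, the ATPase that extracts these proteins from the membrane, stood at 346 and 373 CPM in the Nkx intact libraries, 182 and 233 CPM in the castrate libraries, and 183 and 259 CPM in the Clu libraries, and was not called by edgeR, while DESeq2 called it lower in both comparisons with Nkx intact. In Clu intact against Nkx castrate the 6 called genes were Derl2, Derl3, Herpud1, Ngly1, Sel1l and Syvn1. With only the groups compared in the fit, Derl2 and Herpud1 were not called. Without Clu intact 2 the log2 fold change was 0.78 for Herpud1, 0.93 for Derl2 and 1.28 for Syvn1 and Sel1l. The median log2 fold change of the 12 genes after castration was -0.86, against -0.27 for the core and -0.18 for the regulatory subunits, and this difference between lists was not tested.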

How the data were processed

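Per the submitters' processing notes, reads were checked with FastQC 0.11.9, aligned to GRCm39 with STAR 2.7.9a and counted per gene with featureCounts of Subread 2.0.1. The deposited values are raw counts per gene made by the authors. The sources used here do not give the annotation release or the strand, multi-mapping and UMI settings. Per the labels' protocols, libraries were made from 2 ng of total RNA with a stranded total RNA kit, so few starting molecules may limit precision beyond the read depth.

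The 6 libraries, in 3 groups of 2 taken from the labels, were tested together with edgeR 4.0.16 (R 4.3.3): filterByExpr, totals over the kept genes, TMM factors, group means, two-sided quasi-likelihood F tests and Benjamini-Hochberg adjustment over 13846 genes, called at 0.05. The fit had 3 residual and 4.86 prior degrees of freedom and a biological coefficient of variation of 33.7%. SEs and 95% intervals are per gene from that fit. The comparisons share groups. limma 3.58.1, DESeq2 1.42.0, other scalings and filters, a replicate block and leaving out each library were alternatives. The tests were checked on simulated counts. Exon lengths and overlaps came from GENCODE gene models on GRCm38, promoters from RefSeq on GRCm38.p6.

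Named genes are all those matched by symbol, grouped by known role, with related genes named where called or where they serve as reference points. Members, lists and motifs were chosen with earlier results of these data known. No subunit met the planned rule for printed promoters, so those shown were chosen after their values were seen. The result of 1 gene of a related list is not reported here.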

Additional observations from a re-analysis of the deposited data

How the results depend on the processing

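Over 16 alternatives, 2056 of 2154 values for single proteasome genes stayed within their SE or kept their call, 62 moved by more than the SE, 27 became called, 9 lost a call and none reversed a call. Among all tested genes, calls after castration numbered 1192, and 2300 with no filter on low counts, 2015 by DESeq2 and 671 with only the 2 groups compared. Between the intact groups they numbered 1563, and 2665, 2457 and 3309 under the same settings. In Clu intact against Nkx castrate they numbered 2342, and 3518 with no filter. Members called higher after castration were 0 with only the 2 groups compared. Between the intact groups members called higher were 2 (Psme1 and Psme2) with library totals alone, no filter, a filter of 5 CPM, DESeq2, the replicate block and only the 2 groups compared, and the last setting also called 2 lower, 1 of them a core subunit (Psmb5). In Clu intact against Nkx castrate, library totals alone gave 1 member higher, the regulatory subunit Psmd2. The highest core beta level was 6.32 times the lowest with the longest transcript as length. No scaling moved the median of all genes by over 0.1 on the log2 scale.

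Leaving out each library in turn gave 209 to 2412 calls over all genes after castration, 391 to 3351 in Clu intact against Nkx intact and 687 to 3854 in Clu intact against Nkx castrate. Members called higher ranged from 0 to 1, 0 to 3 and 0 to 11 in that order, and members called lower from 0 to 3, 0 to 1 and 0 to 0. Core and regulatory subunits called ranged from 0 to 2, 0 to 0 and 0 to 10. The median log2 fold change of the core ranged from -0.44 to -0.12, -0.02 to 0.24 and 0.15 to 0.54, and that of the regulatory particle from -0.39 to -0.0254, 0.03 to 0.10 and 0.14 to 0.48. The cause of these changes was not tested.

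The replicate numbers are not tied to a shared animal or day in the labels. Deviations of same-numbered libraries correlated at 0.115, 0.0706 and 0.28, so the numbers were not taken as pairs. The replicate block changed no other member's call than that of Psme1 in Clu intact against Nkx intact.

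Groups of 2 libraries leave wide errors: 95% intervals of 4, 2 and 7 of the 31 subunits in the 3 comparisons reached beyond a 2-fold change.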
